A study of Rattus norvegicus with 28 samples.

Results

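The amygdala of 8-day-old rat pups given corticosterone was compared with that of 8-day-old pups given saline. The 16 arrays compared, of 28 in the series, were chosen by age, agent and array design: all 6 corticosterone arrays (3 paired, 3 unpaired) and the 10 saline arrays of the same smaller design, with replicate numbers 1, 2, 5, 6 and 7 in each training group. In both agents, paired pups received a tail shock of 1 s at 0.5 mA at the end of each of 11 peppermint odors of 30 s in a 45-min session, with 4 min between trials, and unpaired pups received the shock 2 min after the odor. The amygdala was taken directly after training, and the total RNA of each sample was labelled with biotin and read on its own Affymetrix array. Dose, route and timing of corticosterone, and strain and sex of the pups, are not in the labels used here.

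Corticosterone is the main glucocorticoid of the rat. It enters cells, binds the mineralocorticoid receptor (Nr3c2) and the glucocorticoid receptor (Nr3c1), and the bound receptors change transcription in the nucleus, inducing genes such as Sgk1, Tsc22d3 and Fkbp5 in many tissues. Young pups pass through a period of low corticosterone release to stress, and corticosterone in the amygdala at this age is known to bear on whether an odor paired with shock is later avoided.

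The values compared are log2 expression levels after quantile normalization over the 16 arrays, which gives all arrays the same distribution. As deposited, the array medians lay between 5.06 and 5.09 in the corticosterone arrays and between 6.05 and 6.19 in the saline arrays. The arrays of each condition had been processed together, apart from the other conditions as these medians show, so agent and processing cannot be told apart in any value below. The saline arrays themselves fell into a set of replicates 1-2 (4 arrays) and a set of replicates 5-7 (6 arrays), and a probe set was called only where limma gave a Benjamini-Hochberg adjusted p under 0.05 with the same sign against both sets, with training as a covariate. Whether each sample came from a single pup or from pooled pups is not in the labels, so the p-values measure the spread between samples only. In whole tissue, fewer cells of a type and less RNA per cell cannot be told apart.

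Corticosterone arrays differed from both saline sets over much of the array. Of 15866 probe sets, 3601 (22.7%) were higher and 4505 (28.4%) lower in corticosterone, together 8106 (51.1%), while the saline sets differed from each other in 7039 (44.4%). Spearman's rank correlation over probe sets, as a description, was 0.995 to 0.998 between corticosterone arrays, 0.975 to 0.979 between corticosterone and saline 5-7 arrays, 0.958 to 0.963 between corticosterone and saline 1-2 arrays, and 0.974 to 0.985 between arrays of the 2 saline sets. Many calls were small and at low levels. Among probe sets with a mean level under 3, 73.5% were called, and 69.4% of those calls were under 0.2 on the log2 scale. The share called was 46.6% at mean levels of 5 to 7 and 34.7% at 7 to 9. A difference of at least 1 on the log2 scale against both sets was reached by 416 probe sets that were higher (2.62%) and 453 that were lower (2.86%). A list with a share of calls near 51.1% is therefore near the background, and the groups below are read against genes at a level of at least 5 in 1 or more array sets, of which 491 of 2581 (19.0%) were called higher and 464 (18.0%) lower.

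The direction of small differences depended on the scaling. Subtracting each array's median in place of quantile normalization gave 7119 higher and 3449 lower probe sets. The deposited values as given gave 3448 higher and 8864 lower. The median difference of all probe sets from the saline sets was 0.441 and 0.213 in the first and -0.644 and -0.802 in the second. Among the 2581 genes at level it was -0.188 and -0.205 in the first and -1.27 and -1.22 in the second. At level, both scalings thus work against higher calls and toward lower ones. Within-array ranks kept 95 of 96 calls among the named genes. Unscaled, each of the 23 gene lists held more lower than higher calls at level. A gene described below as turning under the unscaled values is 1 whose smaller difference changed sign when the deposited values were used as given.

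**Figure D1:**
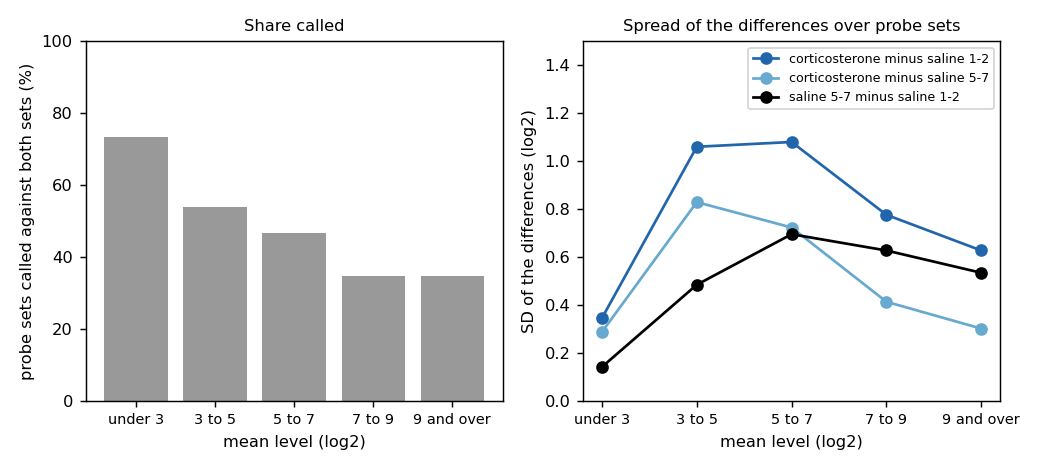
The left panel shows the percentage of probe sets called in corticosterone against both saline sets (y axis) by mean log2 level over the 16 arrays (x axis), from 73.5% under 3 to 34.8% at 9 and over. The right panel shows the SD over probe sets of the 3 differences (log2, y axis) by the same levels: at levels of 7 to 9 it was 0.413 for corticosterone minus saline 5-7, 0.776 for corticosterone minus saline 1-2 and 0.627 between the saline sets.

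Which transcripts stood furthest from both saline sets was asked first. Among genes higher in corticosterone, the leading ones included Adcyap1r1, the receptor of the neuropeptide PACAP, and Gjd2, the gap junction protein connexin 36 of neurons. They also included Htr1b, a serotonin receptor of nerve terminals, Bgn, the matrix proteoglycan biglycan, Star, which carries cholesterol into mitochondria for steroid synthesis, and Hsd11b2, the enzyme that inactivates corticosterone. The other 6 were the cytoskeletal proteins Tns1 and Limk1, the vesicle GTPase Rab3c, the glutathione transferase Gsta2, whose probe set may also read related genes, the diacylglycerol kinase Dgkg and the mitochondrial reductase Mecr. By the rule that chose these 12, the 6 corticosterone arrays lay above the 10 saline arrays, as in 15.3% of all probe sets. In each of them the smaller of both differences also exceeded the difference between the saline sets. Choosing the largest smaller differences among called genes largely set that, so it is not a separate test. Of all probe sets, 43.6% were called and exceeded that difference.

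Adcyap1r1 measured 7.21 to 7.33 (median 7.27) in the corticosterone arrays. Its saline values were 3.40, 1.95, 2.43 and 2.26 in replicates 1-2 and 2.19 to 2.53 (median 2.36) in replicates 5-7. The corticosterone arrays thus lay together at an intermediate level and the saline arrays near the lowest levels, with no overlap. The differences were 4.76 (SE 0.20) and 4.91 (SE 0.18), or at the smaller one 27.1-fold, with a limma adjusted p of 2.53e-11 for the larger p of both. The saline values lay about as low as the lower quartile of the deposited arrays (2.63 to 2.84), so the fold is set against the weakest signals. The other 2 probe sets of Adcyap1r1 were not called: 1 measured 3.49 ± 0.31 in corticosterone against 4.94 ± 1.47 and 4.18 ± 0.39 (mean ± SD, n = 6, 4 and 6), and the other 3.01 ± 0.14 against 2.99 ± 0.82 and 3.41 ± 0.29.

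Hsd11b2 measured 5.99 to 6.04 (median 6.0) in corticosterone. In saline it measured 3.43, 3.49, 3.49 and 3.6 in replicates 1-2 and 3.35 to 4.30 (median 3.79) in replicates 5-7. Every corticosterone array was above every saline array, by 2.50 (SE 0.15) and 2.22 (SE 0.13) on average (larger limma adjusted p = 1.25e-09). Bgn was the leading gene whose 2 probe sets gave the same result. The first measured 6.01 to 6.21 in corticosterone against 3.59 to 3.70 and 3.35 to 3.57 in the saline sets, and the second 6.08 to 6.15 against 3.62 to 4.04 and 3.07 to 3.40. The smaller differences were 2.51 and 2.34, and neither probe set had overlapping arrays. Gjd2 measured 5.89 to 6.17 against 2.95 to 3.21 and 2.98 to 3.83, and Limk1 7.09 to 7.55 against 3.97 to 4.38 and 4.41 to 5.42. Htr1b measured 5.66 to 6.05 against 2.92 to 3.20 and 3.15 to 3.50. Star was less settled: its leading probe set was higher by 2.32 and 2.57, while another was lower, at 4.62 ± 0.45 against 5.90 ± 0.21 and 5.46 ± 0.46 (differences of -1.28 and -0.84, both called), and 2 further ones lay below a level of 3.

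Among the genes that were lower in corticosterone, the leading ones included Faah, the enzyme that degrades the endocannabinoid anandamide, and Sik1, a kinase induced by cAMP signalling. Others were the transcription factor Ets1, the BMP antagonist Nog, the growth factor Hbegf, the Wnt pathway receptor Lgr4 and the proprotein convertase Pcsk6. The remaining 5 were the Ras-association protein Rassf5, the heparan sulfate sulfotransferase Hs3st1, the epithelial adhesion protein Epcam, the DNA primase subunit Prim2 and Lenep. By the same rule the 6 corticosterone arrays lay below the 10 saline arrays, as in 21.0% of all probe sets, and no gene of these had another probe set at a level of at least 5.

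Faah measured 3.98 to 4.59 (median 3.98) in corticosterone, where 5 arrays lay between 3.98 and 4.02. Its saline values were 7.46, 7.25, 7.60 and 7.44 in replicates 1-2 and 6.08 to 6.99 (median 6.93) in replicates 5-7. The gap between the agents was wider than the range within either saline set. The differences were -3.35 (SE 0.18) and -2.67 (SE 0.16), 6.35-fold at the smaller one, with a larger limma adjusted p of 1.89e-09. Ets1 measured 4.26 to 4.39 against 7.37 to 7.63 and 6.37 to 7.06, and Nog 3.54 to 3.84 against 6.65 to 6.82 and 5.82 to 6.16. For both the saline sets also differed from each other, by -0.78 and -0.76, and the corticosterone arrays lay a further 2.34 below the nearer set. Hbegf measured 2.58 to 2.70 in corticosterone, near the lowest levels, against 4.87 to 5.17 over all saline arrays.

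The 24 leading genes were taken from those already called, and their limma adjusted p was at most 9.27e-07. In all 24 the lowest of the 3 array set means was under 5, from 2.25 to 4.88, and in 7 it was under 3. In several of them the higher side was low as well. Among those lower in corticosterone, Prim2, Pcsk6 and Hbegf had saline means of 4.88 and 5.02, 5.28 and 4.92, and 5.04 and 4.96. Among those higher, Mecr, Dgkg, Rab3c and Gsta2 had corticosterone means of 5.08, 5.15, 5.20 and 5.37. The plot of leading genes by array shows each value.

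**Figure D2:**
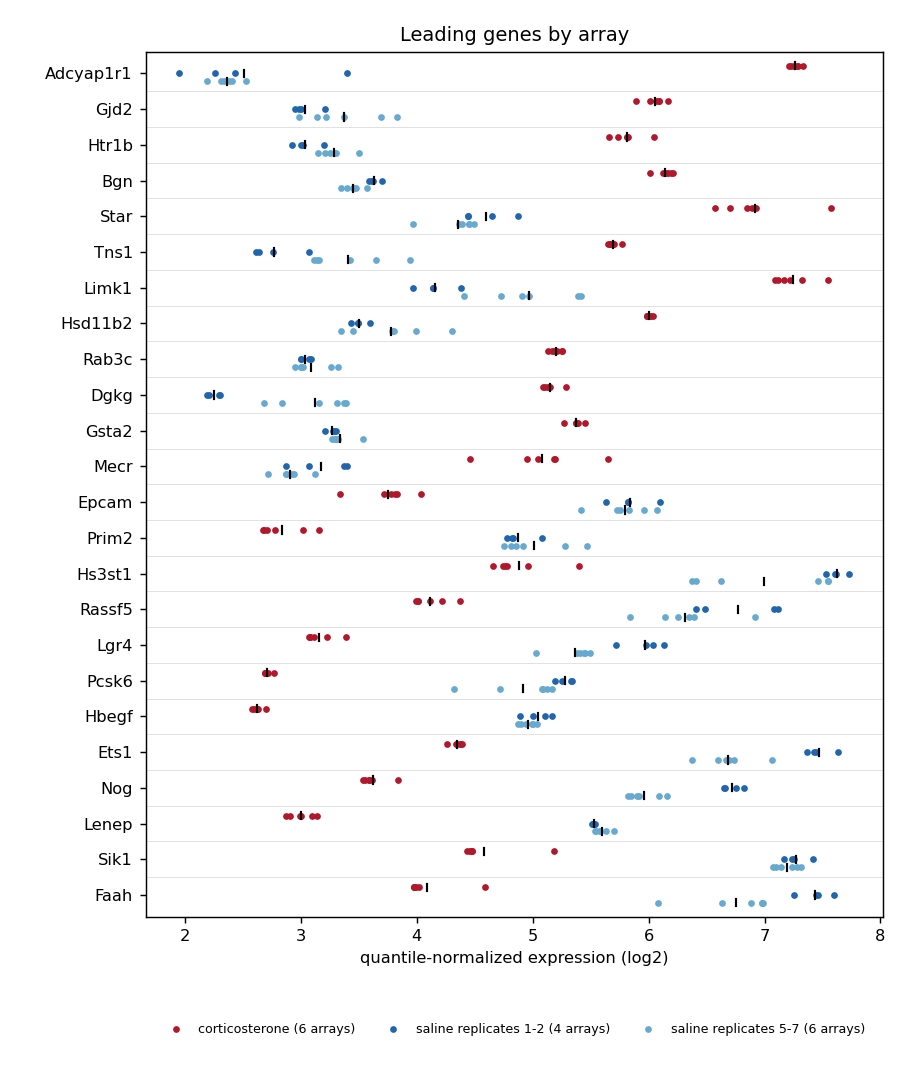
Quantile-normalized log2 expression (x axis) of the 24 leading genes (rows) in each array, with corticosterone in red, saline replicates 1-2 in dark blue and saline replicates 5-7 in light blue, and black bars at the means of the array sets. In the upper 12 rows all red points lie to the right of all blue points, and in the lower 12 to the left.

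Sik1 belongs to the genes that neuronal activity induces through cAMP and CREB. Arc and Klf10, the other members called at level in the immediate early list, are given with it, and so is Dusp1 from the glucocorticoid list. Of the 12 genes at level in the immediate early list, 9 were not called. Sik1 measured 4.43 to 5.18 (median 4.48) in corticosterone, against 7.17, 7.42, 7.25 and 7.24 in saline replicates 1-2 and 7.07 to 7.31 (median 7.19) in replicates 5-7, so the saline sets overlapped each other and both lay above all corticosterone arrays (differences of -2.69 and -2.60, larger limma adjusted p = 7.75e-11). Its second probe set lay below a level of 2 in all array sets. Arc, the synaptic cytoskeletal gene induced by activity, measured 3.58 to 4.06 in corticosterone against 5.32 ± 0.07 and 5.24 ± 0.11 (differences of -1.51 and -1.43, adjusted p = 2.76e-09). Klf10, a transcription factor induced by growth factors, measured 5.98 to 6.42 against 7.10 ± 0.04 and 6.83 ± 0.14 (-0.93 and -0.66). Dusp1, the phosphatase that ends MAP kinase signalling, measured 6.42, 5.44 and 4.97 in paired and 5.12, 6.1 and 5.37 in unpaired corticosterone pups. It measured 6.83 to 7.04 and 6.90 to 7.47 in the saline sets. Its corticosterone arrays were spread widely and still lay below all saline arrays (-1.34 and -1.56, adjusted p = 0.000173), and its other probe set, below a level of 4, was not called. Egr4, a transcription factor of the immediate early list, lay at 2.69 in corticosterone and at 4.83 and 4.67 in saline. That is too low for the naming rule, so it was picked with its values in view.

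The immediate early list as a whole did not move one way. Of its 12 genes at level, 3 were lower (Sik1, Arc and Klf10), 0 were higher and 9 were not called, with medians of 0.11 and 0.03 against the saline sets, beside 19.0% called higher and 18.0% called lower among all genes at level. Egr1, the best measured of these factors, was 9.35 in corticosterone and 9.30 and 9.38 in saline. Its difference from the saline sets, 0.05 and -0.03, was not called.

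The promoter windows of Sik1, Dusp1 and Egr4 are shown because these genes were lower together and are known as CREB targets, a choice made after their values were seen. The windows are those of RefSeq on the build GRCr8, 250 bases before to 50 after the start, read 5′ to 3′ on the gene's strand, for Sik1 at chr20:9958597-9958896 (minus strand), Dusp1 at chr10:17184603-17184902 (plus strand) and Egr4 at chr4:119607768-119608067 (minus strand). Capitals mark the core of the cAMP response element, TGACG or on the other strand CGTCA, and where these overlap the full element TGACGTCA.
Sik1: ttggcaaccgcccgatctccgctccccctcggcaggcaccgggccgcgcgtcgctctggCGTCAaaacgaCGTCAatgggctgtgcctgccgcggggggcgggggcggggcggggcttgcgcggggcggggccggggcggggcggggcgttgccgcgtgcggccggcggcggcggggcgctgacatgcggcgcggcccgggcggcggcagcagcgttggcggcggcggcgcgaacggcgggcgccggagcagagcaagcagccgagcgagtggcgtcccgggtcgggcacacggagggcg
Dusp1: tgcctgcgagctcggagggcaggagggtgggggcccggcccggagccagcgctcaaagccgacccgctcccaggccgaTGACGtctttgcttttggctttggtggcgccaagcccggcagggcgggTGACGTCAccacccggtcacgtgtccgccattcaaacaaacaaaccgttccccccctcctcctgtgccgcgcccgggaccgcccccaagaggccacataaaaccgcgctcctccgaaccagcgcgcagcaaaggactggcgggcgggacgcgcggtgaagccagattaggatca
Egr4: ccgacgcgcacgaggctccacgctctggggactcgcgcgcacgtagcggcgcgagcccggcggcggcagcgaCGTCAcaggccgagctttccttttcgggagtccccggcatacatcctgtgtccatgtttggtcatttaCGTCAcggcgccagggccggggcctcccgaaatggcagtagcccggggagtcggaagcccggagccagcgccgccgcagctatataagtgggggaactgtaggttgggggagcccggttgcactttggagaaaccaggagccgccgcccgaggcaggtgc
The Sik1 window holds 2 cores, whose first bases lie 191 and 180 bases before the start. The Dusp1 window holds a core 172 bases before the start and a full element 124 bases before it, and the Egr4 window holds cores 178 and 110 bases before it. Of all 33469 windows, 21.2% hold a core and 1.83% the full element. Among immediate early genes at level that were not called, 5 of 7 with a window held a core as well and 2 of 7 the full element, against 1 of the 3 windows shown. Arc and Klf10 are named only.

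Whether the known targets of the glucocorticoid receptor were higher after corticosterone was asked next. They were not higher as a group. Of 48 listed genes 29 were measured, 7 were called higher and 8 lower, and of the 16 at level 3 were higher, 3 lower and 10 not called, against 19.0% and 18.0% among all genes at level. The medians of these 16 were 0.11 and 0.14, and after subtracting array medians 2 were higher and 6 lower, beside 308 and 883 of all genes at level. Fkbp5 and Per1, much used readouts of the receptor, were not among the named probe sets.

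Of the genes that were higher, Mt1, a metallothionein that glucocorticoids induce, measured 8.87 to 9.50 (median 9.39) in corticosterone. It measured 7.60, 7.82, 7.79 and 7.93 in saline 1-2 and 8.59 to 9.20 (median 8.68) in saline 5-7. The lowest corticosterone array lay inside the range of saline 5-7, and the differences of 1.54 and 0.50 (larger limma adjusted p = 0.000912) stood beside a difference of 1.04 between the saline sets. Ddit4, an inhibitor of mTOR signalling, was higher by 0.46 and 0.31, at 9.01 to 9.19 against 8.49 to 8.77 and 8.57 to 8.95, with no overlap, but its smaller difference was -0.0437 after subtracting array medians and -0.997 unscaled. Tgm2, a transglutaminase, was higher by 1.46 and 1.02 on its leading probe set (-0.15 unscaled). Its other probe sets disagreed, with 4.74 ± 0.06 against 2.25 ± 0.07 and 2.24 ± 0.04 on 1 and 3.36 ± 0.09 against 5.18 ± 0.28 and 4.69 ± 0.17 on the other, both called.

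Of the genes that were lower, Dusp1 is given above. Tsc22d3, the glucocorticoid-induced leucine zipper, measured 7.88 to 8.24 (median 8.08) in corticosterone. It measured 8.76, 8.71, 9.07 and 8.76 in saline 1-2 and 8.18 to 8.64 (median 8.36) in saline 5-7. Its corticosterone arrays overlapped with saline 5-7, and the differences were -0.75 and -0.31 (larger limma adjusted p = 0.0125). Glul, the glutamine synthetase of astrocytes, was lower by -1.78 and -0.35 on 1 probe set, and its 2 other probe sets, at 10.43 and 10.30 in corticosterone, were not called. Among genes that were not called, Sgk1, a kinase induced by both receptors, measured 8.98 to 9.33 in corticosterone against 9.43 to 9.62 and 8.84 to 9.48 (differences of -0.35 and -0.02). The transcription factors Klf9 (0.14 and 0.74) and Klf15 (0.47 and 0.43) were not called either.

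The promoter windows of the list were searched for the hexamer bound by the glucocorticoid receptor, AGAACA or on the other strand TGTTCT. It was found in 3 of 52 windows of the list and in 0 of the 8 windows of members called at level, against 20.7% of all windows. The palindrome of both hexamers with 3 bases between them was in 5 of the 33469 windows and in 0 of the list. That these letters are not in a window says nothing about the receptor.

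The enzymes and receptors that handle corticosterone differed from each other in direction. The mineralocorticoid receptor Nr3c2, which binds corticosterone with high affinity, measured 3.69 to 4.52 (median 4.10) in corticosterone pups. In saline pups it measured 6.24, 6.34, 6.01 and 6.18 in replicates 1-2 and 5.04 to 5.94 (median 5.68) in replicates 5-7. All corticosterone arrays were below all saline arrays, by -2.09 (SE 0.17) and -1.52 (SE 0.15) on average (larger limma adjusted p = 6.79e-07). The glucocorticoid receptor Nr3c1 lay between the saline sets, at 6.34 to 6.66 against 6.89 to 7.16 and 5.52 to 6.77, with differences of -0.45 and 0.46 that do not share a sign. Hsd11b2, which turns corticosterone into inactive 11-dehydrocorticosterone, was higher as given above, and Hsd11b1, which catalyses the reverse step, measured 8.01 to 8.46 against 7.80 to 8.71 and 8.43 to 8.49 and was not called. Of the receptor's chaperones, Fkbp4 was higher, at 9.42 to 9.52 against 8.76 to 8.95 and 9.06 to 9.27 (0.58 and 0.27), though not after subtracting array medians (-0.0703) or unscaled (-0.863). Hspa8 was lower, at 13.37 ± 0.05 against 14.04 ± 0.03 and 13.94 ± 0.08 (-0.67 and -0.57). Neither had overlapping arrays, and Hsp90aa1 and Stip1 were not called. The corepressor Ncor1 was lower on both probe sets (-0.56 and -0.27 on the first), a call that ended in 7 of 16 runs with a single array left out, where the smaller difference was -0.262 to -0.188 and the adjusted p 0.0578 to 0.0741.

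Oxt, the precursor of oxytocin, measured 6.73 to 7.01 (median 6.88) in corticosterone. It measured 4.56, 5.17, 3.19 and 4.99 in saline 1-2 and 4.64 to 6.11 (median 5.41) in saline 5-7. The saline arrays were spread widely and all lay below the corticosterone arrays (2.39 and 1.49, larger limma adjusted p = 0.000679). Oxt and Avp, the precursor of vasopressin, are made in hypothalamic neurons. Avp was not called (1.5 and -0.41), with 9.15 to 9.61 in corticosterone against 6.68 to 8.46 and 9.61 to 9.96. Hcrt, the precursor of the hypothalamic orexins, was higher too, at 4.45 to 5.86 against 2.50 to 3.10 and 3.04 to 4.43, with no overlap (2.49 and 1.27, larger limma adjusted p = 0.000876). Of 7 thalamus and hypothalamus genes at level, 2 were higher and 0 lower (2 and 2 after subtracting array medians), and of all 12 measured, 3 were higher and 3 lower. The mean level of the list was 6.48 to 6.71 in corticosterone arrays, 6.1 to 6.35 in saline 1-2 and 6.39 to 6.56 in saline 5-7. The part of neighbouring tissue in the results for Oxt and Hcrt was not tested. Crhbp, the binding protein of corticotropin-releasing hormone, also lay too low for that rule and was lower, at 3.11 to 3.21 against 4.41 to 4.62 and 4.31 to 4.63. Over the stress axis list 3 genes at level were higher, 3 lower and 6 not called, with medians of 0.16 and -0.11.

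**Figure D3:**
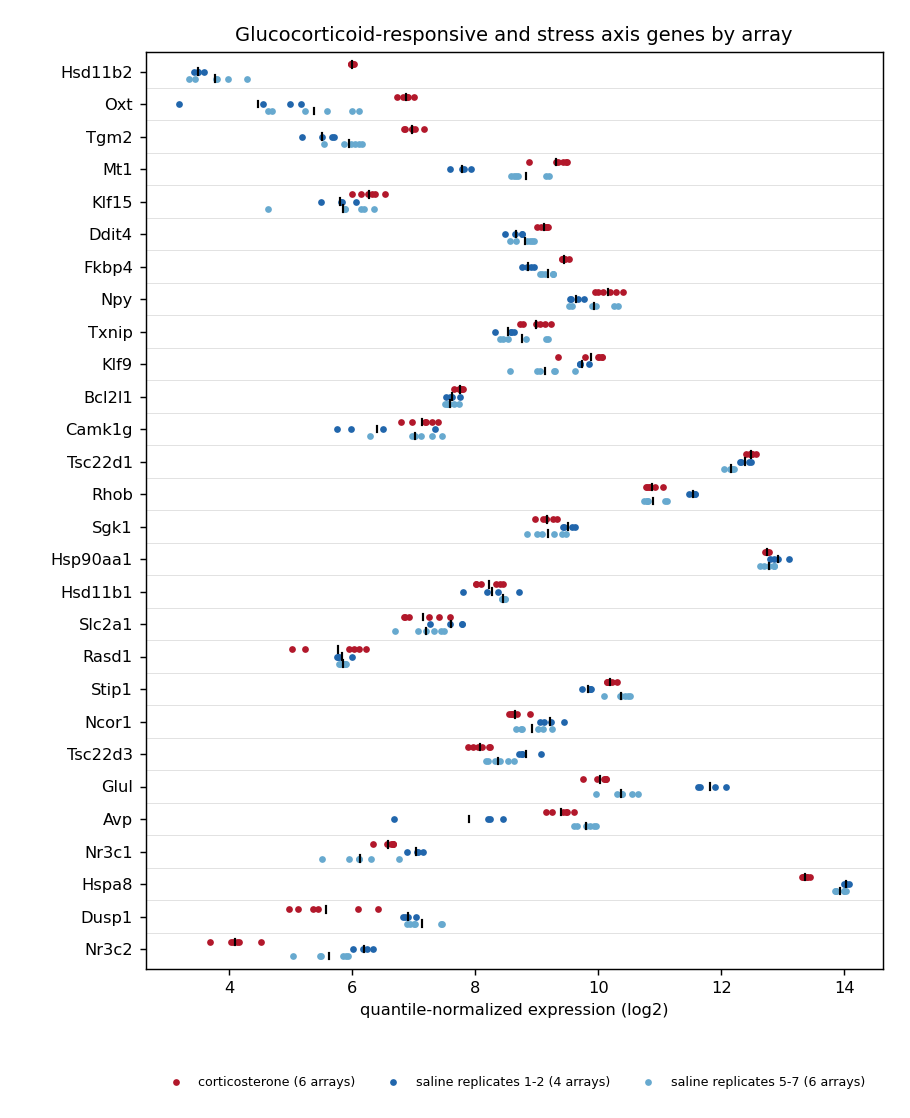
Quantile-normalized log2 expression (x axis) in each array of the glucocorticoid-responsive and stress axis genes at level (rows), with corticosterone in red, saline replicates 1-2 in dark blue and replicates 5-7 in light blue, and black bars at the means. Hsd11b2 and Oxt at the top lie to the right and Dusp1 and Nr3c2 at the bottom to the left of all saline points, while Sgk1 and Nr3c1 lie among them.

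Dopamine genes, the topic named in the title of the series, were asked about next, and few differed. Of 16 measured genes 9 were at level, of which 1 was higher, 1 lower and 7 not called. Th, the rate-limiting enzyme of dopamine synthesis, was lower on 1 probe set, at 6.98 ± 0.15 against 7.46 ± 0.21 and 7.93 ± 0.45 (differences of -0.48 and -0.95, larger limma adjusted p = 0.0392). Leaving out single arrays ended that call in 6 of 16 runs (-0.482 to -0.383, adjusted p of 0.0562 to 0.127). The other Th probe set, at 4.75 ± 1.49 against 6.38 ± 1.24 and 6.46 ± 1.46, was not called (-1.64 and -1.71). Caly, a member of the dopamine list, was higher by 0.66 and 0.19 (-0.528 unscaled). That call was lost in 3 of those runs (0.144 to 0.166, limma adjusted p of 0.052 to 0.0538). Drd1 measured 7.81 ± 1.21 against 6.86 ± 1.05 and 6.69 ± 1.46 (0.95 and 1.12) and Drd2 6.73 ± 0.63 against 6.51 ± 0.71 and 6.22 ± 0.84 (0.22 and 0.50), and the spread within array sets was as large as these differences. Slc18a2 (0.73 and 0.30) and Ddc (0.80 and 0.08) were not called either.

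Markers of neuron types gave small groups of calls. Striatal projection neuron genes were the list with the highest median against saline 5-7, 0.50 and 0.45 over 12 genes at level with 0.00 between the saline sets, and 3 of the 12 were higher and 0 lower. Tac1, the precursor of substance P, measured 8.79, 8.78 and 9.54 in paired and 9.56, 9.29 and 9.38 in unpaired corticosterone pups. It measured 7.37 to 8.14 in saline 1-2 and 7.79 to 8.46 in saline 5-7, below all corticosterone arrays (1.41 and 1.02, larger limma adjusted p = 0.000105), and turned under the unscaled values (-0.0361). Rgs9, a G-protein regulator of striatal neurons, was higher by 1.05 and 0.86, with overlapping arrays, and turned likewise (-0.0219). Adora2a, an adenosine receptor of striatal neurons, was higher by 1.16 and 0.59, a call lost in 11 of 16 runs (0.489 to 0.622, adjusted p of 0.0504 to 0.11) and turned unscaled (-0.0618), and its second probe set was not called. The mean level of the striatal list ran from 6.63 to 8.11 over the corticosterone arrays and from 6.34 to 7.39 over the saline arrays, so the ranges overlapped. The part of a varying share of striatal tissue in these calls was not tested.

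Genes of inhibitory neurons were higher in 4 and lower in 1 of 11 at level, and the tally turned to 1 higher and 2 lower after subtracting array medians and to 1 and 6 unscaled. Slc32a1, the vesicular GABA transporter, measured 9.86 ± 0.23 against 9.23 ± 0.22 and 9.19 ± 0.32 (0.63 and 0.66), with no overlap but turning under the unscaled values (-0.689), and Dlx5, a transcription factor of developing GABA neurons, 5.79 ± 0.53 against 4.08 ± 0.62 and 4.07 ± 0.40 (1.71 and 1.71). Sst (1.46 and 0.32) and Calb1 (0.91 and 0.25), which mark classes of interneurons, were higher, each with overlapping arrays and a difference between the saline sets of 1.13 and 0.66. Calb1 turned under the unscaled values (-0.477). Excitatory markers of amygdala and cortex, measured for 6 of 14 listed genes, were mixed. Slc17a7, the vesicular glutamate transporter of these neurons, was lower at 7.31 to 7.58 against 9.94 ± 0.28 and 8.30 ± 0.73 (-2.47 and -0.83), and its second probe set was not called. Camk2a, a kinase of excitatory synapses, was higher at 5.31 to 6.58 against 3.71 ± 0.21 and 4.53 ± 0.60 (2.34 and 1.52), and Nrgn and Cck were not called. No gene of that list is particular to the amygdala, so the label of the tissue was checked only as far as excitatory forebrain neurons go.

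Synaptic and growth genes were lower more often than higher. Synaptic vesicle genes were lower in 7 and higher in 1 of 20 at level, but their median was -0.41 against saline 1-2 and -0.02 against saline 5-7, with -0.21 between the saline sets. Syn1, a phosphoprotein of synaptic vesicles, measured 7.85 ± 0.15 against 9.67 ± 0.20 and 8.82 ± 0.17 (-1.82 and -0.98), and Rims1, an active zone protein, 4.73 ± 0.48 against 7.61 ± 0.53 and 6.31 ± 0.25 (-2.88 and -1.58). Immature neuron genes were lower in 7 and higher in 1 of 13, with medians of -0.62 and -0.15 and -0.3 between the saline sets. Basp1, a growth cone protein, measured 11.84 ± 0.14 against 12.92 ± 0.10 and 12.63 ± 0.10 (-1.07 and -0.79), and Stmn1, which destabilises microtubules, 12.97 ± 0.07 against 13.55 ± 0.04 and 13.37 ± 0.11 (-0.57 and -0.40). Sox11, a transcription factor of young neurons, was the 1 that was higher (1.49 and 0.47). Glutamate receptor genes were lower in 4 and higher in 1 of 14, with medians of -0.24 and 0.0 and -0.11 between the saline sets. Among the lower ones, Grik1, a kainate receptor, measured 4.08 ± 0.17 against 6.08 ± 0.20 and 5.98 ± 0.05 (-2.01 and -1.90).

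Among markers of other cells, Kdr, the endothelial receptor of VEGF, was lower at 5.79 to 6.25 against 7.82 to 8.22 and 7.47 to 7.79 (-1.93 and -1.58, larger limma adjusted p = 1.65e-09), while the other vascular genes at level except Lum were not called, 2 lower and 0 higher of 11. After subtracting array medians 8 of the 11 were lower and 0 higher, beside 883 and 308 of all 2581 genes at level. Sox10, a transcription factor of the oligodendrocyte lineage, was lower by -1.28 and -1.04. Tspan2, a myelin protein, was lower by -0.55 and -0.64 on 1 of its 2 probe sets. The other was not lower, at 8.95 to 9.29 in corticosterone against 8.86 to 9.16 in saline 1-2 and 8.32 to 8.88 in saline 5-7. Of 11 oligodendrocyte genes, 3 were lower and 1 higher (9 and 0 after subtracting array medians, 10 and 0 unscaled). Microglial genes were higher in 2 and lower in 2 of 7: C1qb (1.69 and 0.94) and Cd53 (0.69 and 0.68), both turning under the unscaled values (-0.287 and -0.047), against Aif1 (-1.39 and -1.06) and Cd74 (-0.91 and -0.72). A second Cd74 probe set, below a level of 4, was called higher (0.63 and 0.60). Aldoc, an astrocyte aldolase, was higher by 0.73 and 0.32 (-0.373 unscaled), and 11 of 13 astrocyte genes were not called. Choroid plexus (6 at level), proliferation (5) and blood genes (3) had 0 calls at level. Kdr, Sox10 and Cd53 had differences between the saline sets of -0.34, -0.24 and 0.00.

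Among housekeeping groups, ribosomal protein genes were higher in 14 and lower in 3 of 45, with medians of 0.37 and -0.02 and 0.32 between the saline sets. Within-array ranks gave 8 higher and 2 lower, subtracting array medians 24 and 1, and the unscaled values 0 and 35. Respiratory chain genes were higher in 6 and lower in 2 of 26 (0.25 and 0.02), such as Atp5pb, a subunit of ATP synthase, at 12.25 ± 0.09 against 11.68 ± 0.04 and 11.72 ± 0.07 (0.56 and 0.53, and -0.503 unscaled). Heat shock and unfolded protein genes were higher in 3 and lower in 1 of 11 (2 and 3 after subtracting array medians), with Ddit3, a stress-induced transcription factor, higher by 2.34 and 0.95 and the chaperone Calr by 0.49 and 0.40, both turning under the unscaled values (-0.336 and -0.811). Cholesterol synthesis genes were higher in 3 and lower in 2 of 16 (2 and 7 after subtracting array medians, 0 and 15 unscaled), Dhcr7 lower by -0.77 and -0.74 and Fdps higher by 0.58 and 0.28 (-0.736 unscaled). Of 8 neurotrophin genes 1 was higher, Sort1, by 0.58 and 0.67 (-0.318 unscaled). In ribosomal and respiratory chain genes the median against saline 5-7 was near 0.

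**Figure D4:**
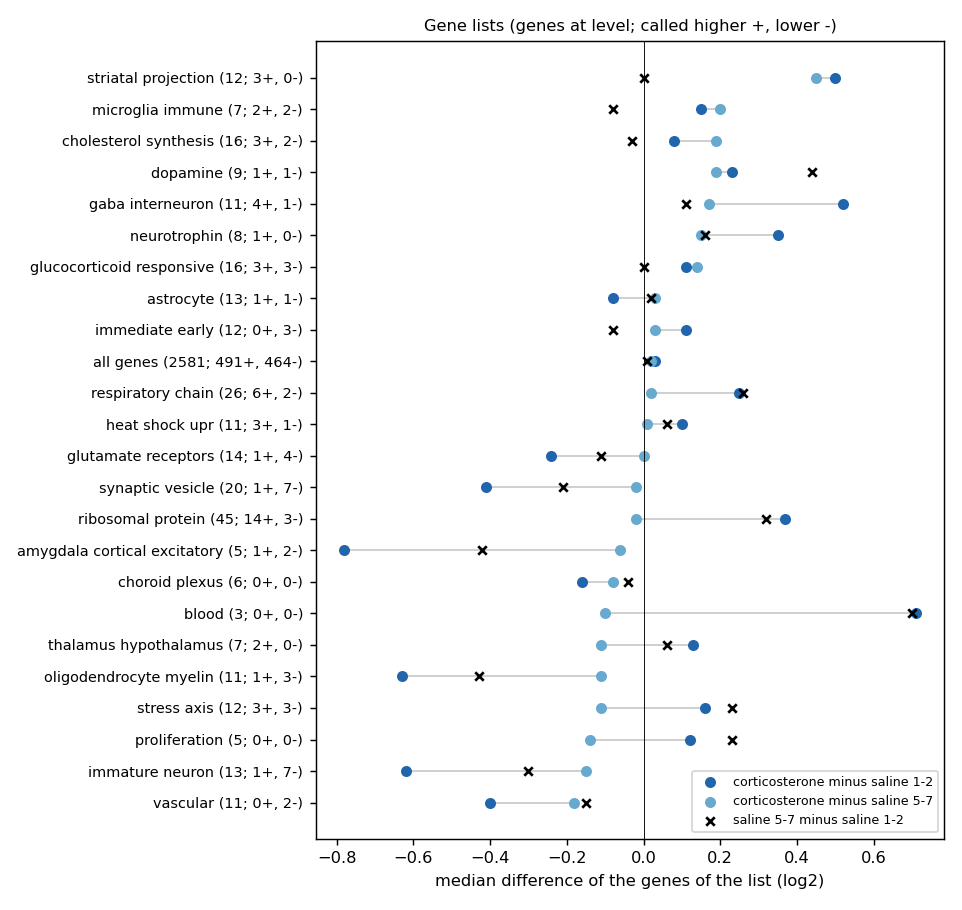
Median log2 difference (x axis) of the genes at level of each list (rows, with the number of genes and of those called higher and lower) for corticosterone minus saline 1-2 in dark blue, corticosterone minus saline 5-7 in light blue, and between the saline sets as crosses. Striatal genes lie to the right in both differences (0.50 and 0.45) with a cross at 0.00, while for most lists the dark blue point and the cross lie on the same side.

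Because the leading genes lay low in 1 agent or both, genes well measured in all arrays were looked at apart, a choice made after the values were seen. Of 1836 genes with a mean level of at least 7, 302 (16.4%) were higher and 295 (16.1%) lower. Arrays of the agents did not overlap in 143 and 155 of the 1836, smaller shares than the 15.3% and 21.0% of all probe sets. The difference was also at least 1 on the log2 scale against both sets in 7 and 13. These are again smaller shares than the 2.62% and 2.86% of all probe sets that reached it, with or without overlap. Among those higher, the largest smaller differences were those of Grp-Ca (2.21 and 1.54, on 1 of its 3 probe sets) and Pde4dip (1.58 and 1.23). The genes described next were picked and are not in order of size. Ppp2r5b, a regulatory subunit of protein phosphatase 2A, measured 9.74 to 10.04 against 8.77 to 8.96 and 8.55 to 8.84, differences of 1.01 and 1.18 with -0.17 between the saline sets. Fdx1, the ferredoxin that feeds electrons to steroid-making enzymes, measured 7.78 to 8.07 against 5.89 to 6.30 and 6.77 to 7.08 (1.83 and 1.02) on 1 of its 2 probe sets. Sfxn5, a mitochondrial carrier of astrocytes, was higher by 2.29 and 1.13, and Nucks1, a chromatin protein, by 2.78 and 1.16, but the saline sets differed in these by 1.16 and 1.61.

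In the other direction, Lypla1 had the largest smaller difference (-2.56 and -1.73). Srd5a1, the 5-alpha-reductase that converts steroids including corticosterone, lay further down that order. It measured 6.33 to 6.64 in corticosterone against 7.56 to 7.62 and 7.70 to 8.23. All corticosterone arrays were below all saline arrays, by -1.18 (SE 0.09) and -1.44 (SE 0.08), with a larger limma adjusted p of 2.96e-08 and 0.26 between the saline sets. Nras, a small GTPase, measured 7.51 to 8.37 against 9.89 to 9.93 and 9.41 to 9.87 (-1.83 and -1.52), and its second probe set was lower too (-0.52 at the smaller). Ppp3cb, a catalytic subunit of calcineurin, measured 8.71 to 8.88 against 10.82 to 11.04 and 9.87 to 10.39 (-2.14 and -1.31). Grp, the precursor of gastrin-releasing peptide, which is made by excitatory neurons of the amygdala, measured 5.76 to 6.24 against 8.08 to 9.09 and 7.05 to 7.48 (-2.46 and -1.19), with -1.28 between the saline sets. Kdr, given above, was among these genes too.

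**Figure D5:**
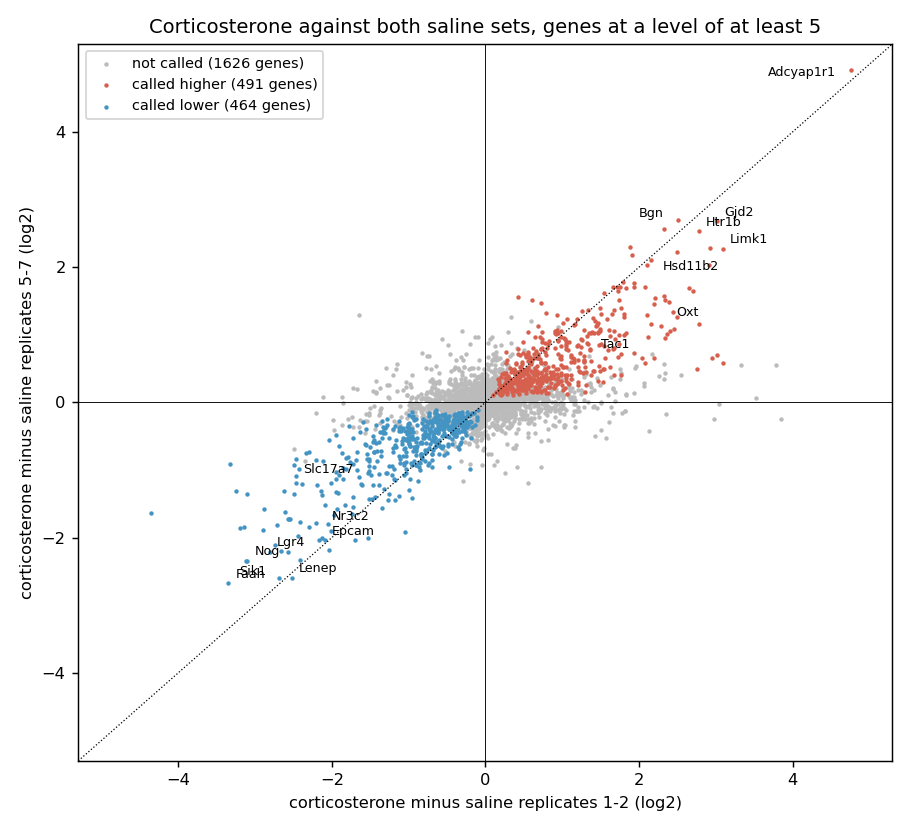
Log2 difference of corticosterone from saline replicates 1-2 (x axis) and from saline replicates 5-7 (y axis) for the 2581 genes at level, with 491 called higher in red, 464 called lower in blue and 1626 not called in grey. The saline sets do not share arrays but both differences share the corticosterone arrays; Adcyap1r1 lies alone at 4.76 and 4.91, and Faah at -3.35 and -2.67.

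How far probe sets of the same gene gave the same direction was looked at for all genes. Of 321 genes with 2 or more called probe sets, 164 (51.1%) had them in 1 direction and 157 in opposite directions. Over all levels, the direction of 1 called probe set thus said little about that of another. For the difference between the saline sets it was 166 of 258 (64.3%) in 1 direction. At a level of at least 5 it was 52 of 82 (63.4%) for corticosterone and 112 of 171 (65.5%) for the difference between the saline sets. Agreement was thus no more frequent for corticosterone than between the saline sets. Genes whose probe sets at level were all called in 1 direction numbered 16 higher and 17 lower, and with at least 0.5 on each probe set 4 and 6. Besides Bgn, those higher were Abcc5, an exporter of cyclic nucleotides, Igfbp3, a binding protein of insulin-like growth factors, and Vcan, the matrix proteoglycan versican. Those lower included Nras, the survival protein Mcl1, the kinase Eef2k and Eloa, a subunit of elongin. These were chosen after their values were seen.

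Whether the difference between the agents depended on training was tested with an interaction term. Limma called 0 of 15866 probe sets, with 236 at an unadjusted p under 0.05 (1.49%). That fit treats the saline arrays as 1 group. With the saline sets as separate terms, added after the data were seen, limma again called 0, with 570 at an unadjusted p under 0.05 (3.59%), and the median SE of the interaction fell from 0.194 to 0.144. For Adcyap1r1 the difference in the first fit was -0.08 (SE 0.33) in paired minus unpaired pups, and its arrays of both training groups lay together in the corticosterone pups.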

How the data were processed

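The values compared were log2 expression levels per probe set as deposited by the authors, on 1 array per sample. RMA and GCRMA are named in the submitters' processing notes, and paired and unpaired arrays were processed together for each condition, per the series' design text. Versions are not given in the sources used here. The authors' deposited fold changes (a ratio of unpaired to paired pups within an agent) served only as a check of scale: the log2 group means of the corticosterone arrays matched them within 0.00012.

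Values of the 16 arrays were quantile-normalized together and fitted with limma 3.58.1 in R 4.3.3 (3 array sets, training as a covariate, empirical Bayes with a mean-variance trend, Benjamini-Hochberg over 15866 probe sets, threshold 0.05). The step was tested on simulated data. Tables and plots used Python 3.11.15, pandas 2.3.3, numpy 2.4.6, scipy 1.17.1 and matplotlib 3.10.9. Through the authors' annotation and RefSeq names (GRCr8), 6027 probe sets had 1 symbol, for 4836 genes, and 9839 had none. A gene's level is that of its probe set with the highest mean. "At level" means a mean of at least 5 in 1 or more array sets. An array set is the corticosterone arrays (6), saline replicates 1-2 (4) or saline replicates 5-7 (6).

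The genes named are, per direction, the 12 with the largest smaller-of-both difference among called genes at level without overlapping arrays, then members of the glucocorticoid, stress axis and dopamine lists, and for the other lists at most 4 called members each. The comparison, the lists and the tests were chosen with earlier results of these data known. Alternatives were other scalings, a level filter, no trend, no covariate, each training group alone, a replicate block, a stricter threshold and leaving out each array. The 12-day arrays and the arrays of the larger design were not used here.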

Additional observations from a re-analysis of the deposited data

Results flagged for a closer look

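Among 182 groups of 4 or more values looked at for a sample far from the others, 9 held 1, and chance flags about 1 in 20. In unpaired saline pups, Adora2a was 4.60 in replicate 1 against 6.07 to 6.44 in the others, Hs3st1 was 6.37 in replicate 7 against 7.46 to 7.62, and Sort1 was 4.68 in replicate 2 against 5.15 to 5.20. In paired saline pups, replicate 5 was high for Cd53 (4.86 against 4.41 to 4.53) and for Gsta2 (3.54 against 3.28 to 3.32). Replicate 2 was high for Sox10 (7.33 against 6.94 to 7.03) and low for Tns1 (2.64 against 3.07 to 3.16). Prim2 was high in replicate 6 (5.47 against 4.75 to 4.92) and Star in replicate 1 (4.87 against 4.36 to 4.49). The groups screened were saline groups, since each corticosterone training group holds 3 arrays, which is too few for this screen. Of these genes Adora2a lost its call when certain single arrays were left out.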

How the results depend on the processing

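The 24 leading genes kept their calls under all 3 other scalings and without the trend or the covariate. They also kept them in paired or unpaired arrays alone, with a replicate block and with each array left out. These 24 were chosen for the largest smaller differences (1.91 to 4.76 in size) among called genes without overlapping arrays. Keeping a call with fewer arrays or without the covariate was thus largely set by that choice. It is not a separate test of these genes. With a mean of at least 5 required over all arrays, 9 of the 24 were tested and 9 kept. Of all 96 named genes that were called, ranks kept 95, subtracting array medians 83, the unscaled values 64, paired arrays alone 80 and unpaired arrays alone 75. Leaving out 1 array in turn kept 88 in all runs, and the 8 that were lost in some were Adora2a, Caly, Cnp, Hspd1, Ncor1, Nptx1, Pdgfra and Th.

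The number of probe sets higher was 7119 after subtracting array medians, 1613 with a mean of at least 5 and 416 with at least 1 log2, and the number lower was 8864 unscaled, 1625 and 453 under the last settings. The saline sets differed in 2951 probe sets in paired arrays alone, 4343 in unpaired arrays alone and 910 with at least 1 log2. Without 1 array the ranges were 3454 to 3748 higher, 4357 to 4640 lower and 6052 to 7034 between the saline sets. Deviations of same-numbered paired and unpaired arrays correlated at -0.264, 0.0422 and -0.157 in corticosterone, 0.489 in saline 1-2, and 0.107, -0.0145 and -0.0919 in saline 5-7, so the numbers were not taken to pair the samples, and not every sample correlated best with its own number. With the replicate number as a block, 3516 were higher, 4411 lower and 6676 differed between the saline sets. That block lost the calls of Adora2a, Cnp and Nptx1. The interaction with training had 0 limma calls with the saline sets pooled (236 at an unadjusted p under 0.05) or as separate terms (570).

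The smaller difference changed sign after subtracting array medians in Ddit4 (-0.0437), Fkbp4 (-0.0703), Hspd1 (-0.0187) and Pdgfra (-0.17). Unscaled, it did so in Adora2a (-0.0618), Aldoc (-0.373), Atp5f1c (-0.604), Atp5mc1 (-0.191), Atp5pb (-0.503), C1qb (-0.287), Calb1 (-0.477), Calr (-0.811), Caly (-0.528), Cd53 (-0.047), Ddit3 (-0.336), Ddit4 (-0.997), Fdps (-0.736), Fkbp4 (-0.863), Hsd17b7 (-0.51), Hspd1 (-1.04), Pdgfra (-1.18), Rgs9 (-0.0219), Rpl14 (-0.15), Rpl18 (-0.406), Rps26 (-0.414), Slc32a1 (-0.689), Sort1 (-0.318), Tac1 (-0.0361), Tgm2 (-0.15) and Trhr (-0.9). In every one of these the call was higher in corticosterone. The cause of these changes was not tested. Signal limits the leading genes, whose weaker side was under a level of 5.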
